A study of Amaranthus palmeri with 48 samples.

Results

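The leaf transcriptome after 2,4-D was compared directly with that after mesotrione in Palmer amaranth (Amaranthus palmeri), a weedy broadleaf plant. The comparison took the 12 libraries of batch 1 (titles ending in B1) that carry either herbicide in the title, of 48 libraries in the series. They formed 4 groups of 3 libraries, namely resistant plants numbered 5, 7 and 8 (titles beginning KCTR) and susceptible plants numbered 5, 6 and 7 (titles beginning KSS), each line after 2,4-D and after mesotrione. Per the labels the lines differ in phenotype, all plants were raised from seed in a growth chamber and sprayed at a height of 10 to 12 cm, and per the series' design text leaves were taken 6 h after treatment. The spray volume was 187 L per ha, and the day and night temperatures were 32 and 22 °C. The doses, the makeup of the spray, the herbicides that the resistant line withstands and the way in which 1 plant number received both sprays were not stated. Both sides of the comparison were sprayed, so it does not rest on the 6 control libraries of the same batch (3 per line), which were read only to see where they stood. The titles of the control libraries carry NT in place of a herbicide, but the labels do not say whether the controls were left unsprayed or sprayed with a blank.

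2,4-D is a synthetic auxin. Auxins bind receptors of the TIR1/AFB family in the nucleus, which leads to the breakdown of the Aux/IAA repressors and frees transcription factors that switch on early auxin genes, among them the GH3, SAUR and Aux/IAA families. In broadleaf plants an excess of auxin also raises the synthesis of ethylene and abscisic acid. Mesotrione blocks 4-hydroxyphenylpyruvate dioxygenase, an enzyme of tyrosine breakdown whose product is needed for plastoquinone and tocopherols. Without plastoquinone, carotenoid synthesis stalls and new leaves bleach over the following days. The count table pairs none of its gene identifiers with names or functions and no annotation was used, so no gene below could be assigned to these pathways and the leaf label could not be checked against marker genes.

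The 12 libraries differed in depth in a way that moved with the treatment. Resistant libraries held 42843640 to 47520673 counts after 2,4-D and 26216145 to 30046691 after mesotrione. Susceptible libraries held 28113993 to 36631329 and 16583010 to 29310974 counts. The first principal component of log2 CPM (the count scaled to library size with TMM factors), computed from the 2000 genes of highest variance, took 27.3% of the variance and separated the treatments. On it, 2,4-D libraries lay at 39.9 to 54.7 (resistant) and 16.7 to 33.5 (susceptible), and mesotrione libraries at -35.9 to -7 and -64.8 to -48.1. The second component (20.6%) separated the lines. Resistant libraries lay at 7.2 to 27.2 after 2,4-D and 38.7 to 60.4 after mesotrione, and susceptible libraries at -55.2 to -34.7 and -30.7 to -5.2. It thus also separated the sprays within each line, as the first component separated the lines within each spray.

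About equal numbers of genes stood higher and lower after 2,4-D than after mesotrione. Over the mean of both lines, 6026 of 18836 genes tested (32%) differed by edgeR's quasi-likelihood test at an adjusted p under 0.05, and genes that passed it are referred to as called. Of these, 3045 (16.2% of all tested) were higher and 2981 (15.8%) lower after 2,4-D. The differences were mostly modest, with a median log2 difference of 0.75 among the higher and -0.75 among the lower genes. The upper tail was the longer one. A difference of over 4-fold was reached by 384 higher and 237 lower genes, and of over 2-fold by 1059 and 959. The highest 5% of the higher genes lay above 3.04 on the log2 scale, and the lowest 5% of the lower genes below -2.28. In leaf RNA of this kind, fewer cells of a type and less RNA per cell cannot be told apart. With the plant number as a block, which compares the libraries of each plant number with each other, 9319 genes (4716 higher, 4603 lower) were called, among them 6016 of the 6026. When all libraries were thinned to the depth of the shallowest, 5750 genes were called (2851 higher, 2899 lower).

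**Figure D1:**
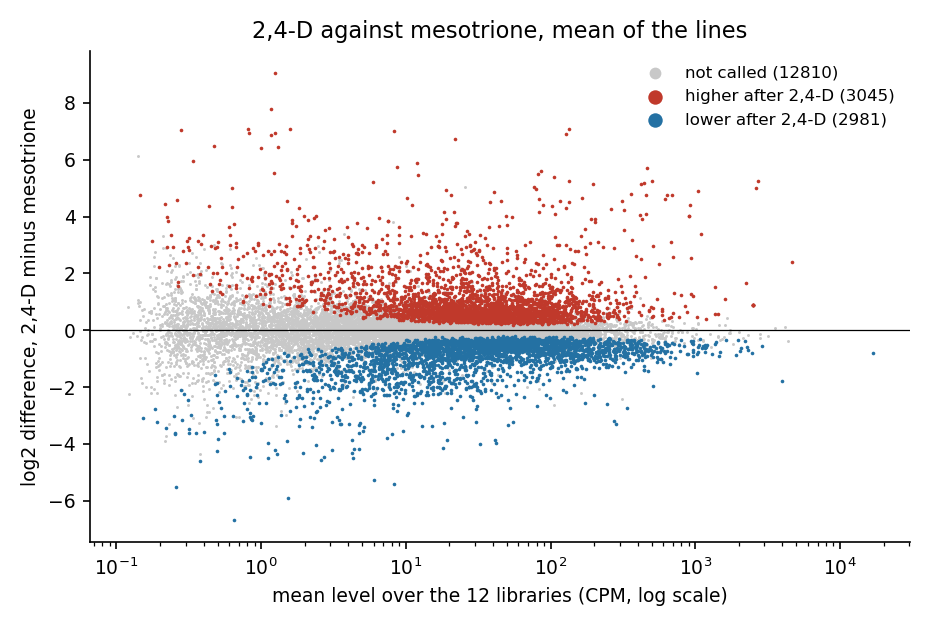
Each point is a gene. The x axis gives its mean level over the 12 libraries in CPM on a log scale, and the y axis the fitted log2 difference, 2,4-D minus mesotrione, over the mean of both lines. Red points (3045) were higher and blue points (2981) lower after 2,4-D, grey points were not called, and the red points reach farther from 0 than the blue.

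Calls became more frequent with expression level, and called genes of the lower classes differed by more. A gene with few counts passes the test only with a large difference. The sizes of called genes therefore cannot show whether weakly expressed genes changed more. Genes were ranked by mean level and cut into 4 classes of 4709. In the lowest class (up to 5.19 CPM), 7.28% were higher and 7.37% lower, and the median absolute log2 difference of the called genes was 1.73. In the highest class (above 47.1 CPM), 22.4% were higher and 24.1% lower, with a median of 0.64. In between, 13.9% and 15.1% of the second class and 21.1% and 16.7% of the third were higher and lower, with medians of 0.85 and 0.64. Differences of over 2-fold made up 83% of the calls in the lowest class and 21.9% in the highest.

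Genes were named only where the sprays did not overlap within the line or lines compared, so the lack of overlap and the count of plants below are set by that choice and add no support. Over the mean of the lines the highest log2 difference among such genes was that of AmaPaChr10Ag166430. After 2,4-D it stood at 116, 363 and 250 CPM in resistant plants 5, 7 and 8 and at 138, 421 and 317 CPM in susceptible plants 5, 6 and 7. After mesotrione the same plant numbers had 3.47, 1.36 and 1.41 CPM in resistant and 2.5, 1.57 and 1.65 CPM in susceptible plants. Every 2,4-D library lay far above every mesotrione library, and the control libraries (0.567 to 1.88 CPM) lay beside the mesotrione libraries. The log2 difference was 7.08 ± 0.46 SE (edgeR adjusted p = 6.4e-06), higher in 6 of 6 plants, and the lines gave 6.87 ± 0.64 SE (resistant) and 7.3 ± 0.65 SE (susceptible).

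AmaPaChr04Ag065480 followed, with 261, 272 and 383 CPM after 2,4-D in resistant plants 5, 7 and 8 and 133, 50 and 413 CPM in susceptible plants 5, 6 and 7. After mesotrione it stood at 5.57, 0.788 and 8.08 CPM in resistant and 0.341, 0.713 and 1.56 CPM in susceptible plants. The groups did not overlap, and the 2,4-D libraries of susceptible plants were the more spread. The log2 difference was 6.91 ± 0.72 SE (adjusted p = 0.00012) over both lines, and 7.83 ± 1.07 SE in susceptible plants (adjusted p = 0.0017), where this gene ranked highest. In resistant plants the second highest gene was AmaPaChr04Ag076890. It rose from 0.362, 0.573 and 0.222 CPM after mesotrione to 25.5, 46.6 and 60.7 CPM after 2,4-D (plants 5, 7 and 8), a log2 difference of 6.84 ± 0.67 SE (adjusted p = 0.00035). In susceptible plants, which the rule did not read for this contrast, it stood at 73.3, 35.6 and 17.3 CPM after 2,4-D and at 0.569, 0.214 and 0.55 CPM after mesotrione (plants 5, 6 and 7).

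The genes at the other end were less uniform between libraries. AmaPaChr14Ag221260 stood at 5.06, 1.28 and 1.54 CPM after 2,4-D and 43.3, 6.81 and 5.93 CPM after mesotrione for resistant plants 5, 7 and 8. In susceptible plants 5, 6 and 7 it stood at 3.34, 1.97 and 3.24 CPM after 2,4-D and 188, 54 and 78.7 CPM after mesotrione. Within each line the treatments did not overlap, and the log2 difference was -4.01 ± 0.63 SE (adjusted p = 0.001), lower after 2,4-D in 6 of 6 plants. The control libraries did not settle with either side. In resistant plants they held 279, 2.24 and 1.13 CPM (plants 5, 7 and 8) and in susceptible plants 13.1 to 23.7 CPM, between the 2 sprayed groups of that line.

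AmaPaChr02Ag030770 stood at 0.834 to 2.31 CPM after 2,4-D and 4.27 to 41.6 CPM after mesotrione among resistant plants. In susceptible plants it stood at 18.6, 2.24 and 6.2 CPM after 2,4-D and at 283, 35.4 and 73.6 CPM after mesotrione (plants 5, 6 and 7). Plant 5 was the highest of the 3 susceptible plants under both sprays. The log2 difference was -3.95 ± 0.76 SE (edgeR adjusted p = 0.0029), lower in 6 of 6 plants. The resistant control library 5 was again the highest of its group, at 175 CPM against 12.8 and 5.75 CPM.

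**Figure D2:**
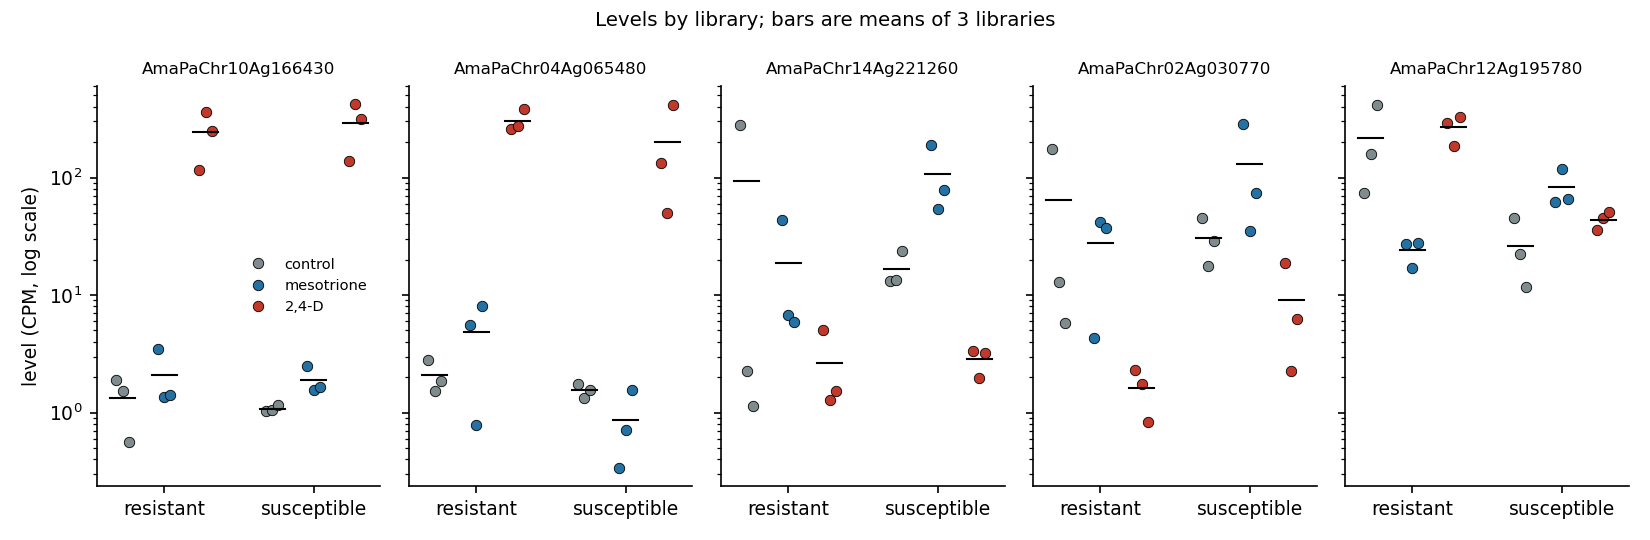
Levels of 5 genes in the 18 libraries of batch 1, in CPM on a log scale, with 1 point per library and a bar at the mean of each group of 3. The first pair of genes lies at 50 to 421 CPM in 2,4-D libraries and at 0.341 to 8.08 CPM in all others. The second pair is lower after 2,4-D than after mesotrione in each line. AmaPaChr12Ag195780 is higher after 2,4-D than after mesotrione in resistant plants and lower in susceptible plants, where the difference was not called.

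The genes at the lower end of each line's own comparison rested on few libraries. In resistant plants AmaPaChr04Ag071300 and AmaPaChr04Ag071310, whose identifiers carry consecutive numbers, had log2 differences of -5.67 ± 1.52 SE and -5.64 ± 1.53 SE (edgeR adjusted p = 0.033 and 0.034). Their mesotrione libraries ran from 1.48 to 38.3 CPM and from 0.667 to 13.9 CPM. Their 2,4-D libraries ran from 0.19 to 0.417 CPM and from 0.0475 to 0.131 CPM. Resistant control libraries ran from 0.118 to 0.89 CPM and from 0.162 to 0.709 CPM. By group mean these controls lay nearer to 2,4-D than to mesotrione. Without mesotrione library 5 the differences were -2.99 and -3.2 and neither was called (adjusted p = 0.13 and 0.12). Neither was called without any 1 of the resistant 2,4-D libraries 5, 7 and 8 (adjusted p = 0.082 to 0.12), or in a fit of the 6 resistant libraries alone (adjusted p = 0.056 and 0.053). Whether the pair shares reads was not tested, so its counts are uncertain. In susceptible plants AmaPaChr14Ag213240 and AmaPaChr06Ag107060 had log2 differences of -6.51 ± 1.37 SE and -6.5 ± 1.41 SE (adjusted p = 0.012 and 0.013). Their levels were 1.93 to 72.3 CPM and 0.856 to 55.4 CPM after mesotrione, and 0.2 to 0.546 CPM and 0.219 to 0.267 CPM after 2,4-D. Susceptible control libraries spanned both sprays, at 0.18 to 42.4 CPM and 0.144 to 28 CPM. Without susceptible mesotrione library 7, the highest of both genes, the differences were -4.87 and -4.43 (adjusted p = 0.033 and 0.035). Neither was called without plant 5 or plant 7 (adjusted p = 0.075 to 0.095), and AmaPaChr06Ag107060 was not called without susceptible 2,4-D library 6 (adjusted p = 0.057).

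Within resistant plants, 2663 genes differed between the sprays (14.1% of those tested), 1421 of them higher (7.54%) and 1242 lower (6.59%) after 2,4-D. Within susceptible plants, 2851 genes differed (15.1%), 1598 higher (8.48%) and 1253 lower (6.65%). These lists compare different libraries, but their filter and dispersion came from 1 fit of all 12. Of the higher genes, 981 were called in both lines, which is 69% of the resistant and 61.4% of the susceptible list. Of the lower genes, 775 were called in both, 62.4% and 61.9% of the lists. In opposite directions, 6 genes were called. When each line was fitted on its own 6 libraries, the resistant fit called 1544 of 18315 genes (8.43%), 946 up and 598 down after 2,4-D, and the susceptible fit 2349 of 18171 (12.9%), 1185 up and 1164 down. Between these lists 529 genes were higher in both lines (55.9% of the resistant and 44.6% of the susceptible list) and 309 lower in both (51.7% and 26.5%). Across all 18836 genes, which are not independent replicates and were measured in libraries of 1 batch, the log2 differences of the lines correlated at r = 0.74.

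The number of calls within a line depended on single libraries and on the block. The resistant count was 997, 1470 and 1537 without 2,4-D library 5, 7 and 8, and 1227 and 1143 without mesotrione library 7 and 8. Among susceptible plants 1658 and 1331 genes were called without 2,4-D library 5 and 6, and 1499 and 1729 without mesotrione library 5 and 6. Blocking on the plant number raised them to 6328 (3068 higher, 3260 lower) in resistant and 6569 (3309 higher, 3260 lower) in susceptible plants, among them 2652 of the 2663 and 2845 of the 2851. DESeq2 called 4190 (2022 higher, 2168 lower) in resistant plants and 4241 (2154 higher, 2087 lower) in susceptible plants.

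**Figure D3:**
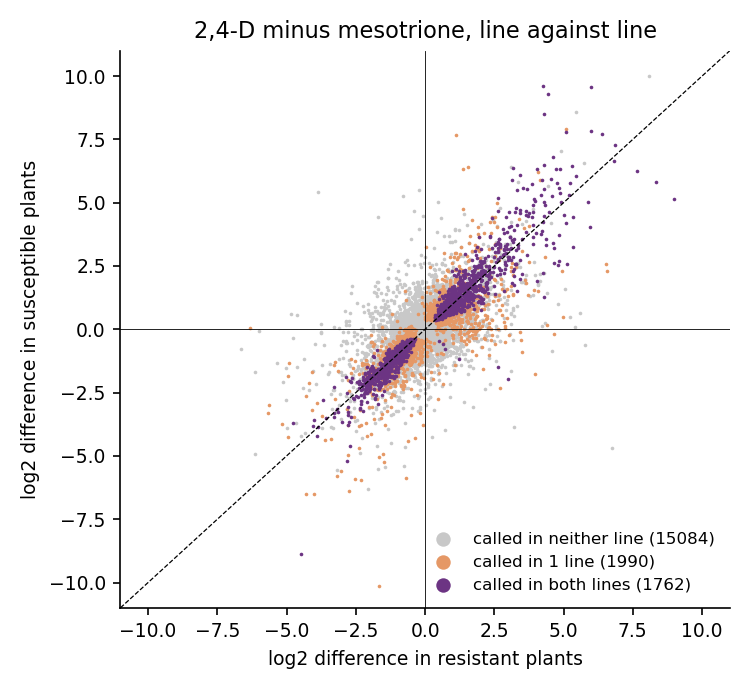
Each point is a gene, with its log2 difference (2,4-D minus mesotrione) in resistant plants on the x axis and in susceptible plants on the y axis. Purple points (1762) were called in both lines, orange points (1990) in 1 line, and the dashed line marks equal differences. Of the purple points, 981 were higher and 775 lower in both lines, and these lie along the dashed line.

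Genes called in 1 line were next read in the libraries of the other line, which entered the choice only through the filter and dispersion they shared. The 1421 genes higher after 2,4-D in resistant plants had a median log2 difference of 0.87 ± 0.056 in susceptible plants (SD over 3 plants, n = 3 differences of the same plant number). In all 3 susceptible plants, 90.1% of them were higher, where 30.7% of all genes tested were. The 1242 lower genes had a median of -0.87 ± 0.068, and 97.4% were lower in all 3 susceptible plants, against 31.5% of all genes. In the other direction, the 1598 genes higher in susceptible plants had a median of 0.8 ± 0.16 in resistant plants, and 95.3% were higher in all 3 of them against 31.4% of all genes. The 1253 lower genes had a median of -0.9 ± 0.17, and 93.8% were lower in all 3 resistant plants against 33.1% of all genes. The same reading was made with lists from fits of 1 line's 6 libraries alone, in which the other line had no share. The 946 higher and 598 lower genes of resistant plants had medians of 1.03 ± 0.093 and -0.92 ± 0.11 in susceptible plants, and 90.2% and 96.7% differed that way in all 3 plants. The 1185 higher and 1164 lower genes of susceptible plants had medians of 0.95 ± 0.19 and -0.91 ± 0.19 in resistant plants, with 95.4% and 93.9% in all 3 plants. The medians of all genes tested in the joint fit were -0.0025 in susceptible and -0.011 in resistant plants. In the joint lists resistant plants were the more spread among themselves, with medians per plant of 0.64 to 0.96 for the higher and -1.06 to -0.72 for the lower genes, and susceptible plants ran from 0.83 to 0.94 and from -0.92 to -0.79.

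The control leaves of batch 1 stood nearer to the mesotrione leaves than to the 2,4-D leaves for most of these genes. In susceptible plants, the genes higher after 2,4-D in resistant plants lay 0.079 above mesotrione in control libraries (median log2, with single libraries from -0.015 to 0.14), and the lower genes -0.12 from mesotrione (-0.2 to 0.0037). In resistant plants, the genes chosen in susceptible plants lay 0.065 above mesotrione (-0.062 to 0.17, higher genes) and -0.14 from it (-0.25 to -0.012, lower genes). These medians had the sign of 2,4-D, and were about as large as the SD over 3 control libraries or smaller (0.084, 0.11, 0.12 and 0.12 in the order given). The sign did not hold throughout. In resistant plants the lower genes lay at 0.054 without resistant mesotrione library 8 and at -0.3 without mesotrione library 5. In susceptible plants the higher genes called with over 2-fold differences lay at -0.061, and the lower ones at -0.45. The lower genes there lay at -0.28 when resistant mesotrione library 7 was left out of the choice. Of the genes in these 4 lists, the control mean was nearer to mesotrione than to 2,4-D for 81% and 83.3% in susceptible and 87.5% and 88.3% in resistant plants, against 65.1% and 63.1% of all genes tested. Control libraries of batch 2 with the same plant numbers lay at 0.15 and -0.16 in susceptible and 0.23 and -0.13 in resistant plants. Whether these came from the same plants was not stated.

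**Figure D4:**
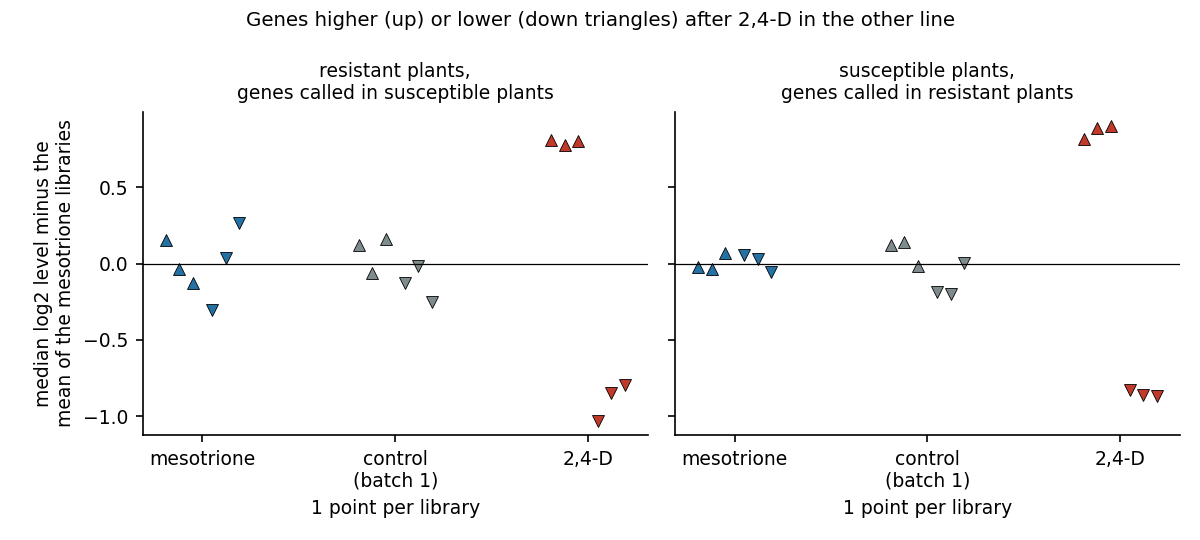
Median log2 level of each library of batch 1, relative to the mean of the 3 mesotrione libraries of its line, for genes called in the other line. Upward triangles are genes higher and downward triangles genes lower after 2,4-D in the other line, with 1 point per library. Control and mesotrione libraries lie between -0.3 and 0.27, and 2,4-D libraries at 0.78 to 0.9 for the higher and -1.03 to -0.79 for the lower genes.

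In 1 fit of all 18 libraries of batch 1, with 19288 genes tested, 5608 (29.1%) differed between 2,4-D and mesotrione and 4510 (23.4%; 2164 higher, 2346 lower) between 2,4-D and control leaves, over the mean of both lines. Between mesotrione and control leaves 1 gene (0.00518%) was called, lower after mesotrione, and 1971 genes had an unadjusted p under 0.05. These comparisons share libraries and are given side by side. The count for mesotrione depended on the setting. DESeq2 called 370 genes (123 higher, 247 lower), and the plant number as a block gave 257 genes for mesotrione and 7367 for 2,4-D against control leaves. Without the resistant control library 5, 228 genes were called between mesotrione and control leaves by edgeR (83 higher, 145 lower), and 18 without susceptible mesotrione library 7. Resistant control library 5 was the deepest of the series, at 72979429 counts, against 19414318 and 25739390 for resistant controls 7 and 8. Susceptible controls held 50239591 to 66702207 counts. Whether depth plays a part was not tested. Leaving out any other single library gave between 0 and 3, with 1459 to 2109 genes at an unadjusted p under 0.05.

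The share of all counts that these genes took up also differed between the sprays. In resistant plants the 1598 genes that were higher in susceptible plants made up 18.8 ± 1.08% of all counts after 2,4-D (SD, n = 3), 7.86 ± 0.99% after mesotrione and 8.44 ± 1.37% in control leaves. In susceptible plants the 1421 genes that were higher in resistant plants made up 19 ± 0.55% after 2,4-D, 8 ± 0.45% after mesotrione and 8 ± 0.68% in control leaves. No 2,4-D library (17.9 to 20%) overlapped with the mesotrione or control libraries (6.87 to 9.4%). The lower genes made up 7.62 ± 0.4% after 2,4-D, 13.9 ± 1.96% after mesotrione and 13 ± 1.5% in control leaves of resistant plants. In susceptible plants the values were 8.23 ± 0.21%, 15 ± 0.65% and 13.6 ± 1.08%. The groups were again apart for 2,4-D (7.16 to 8.46%) against the others (11.9 to 15.8%), while mesotrione and control libraries overlapped.

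**Figure D5:**
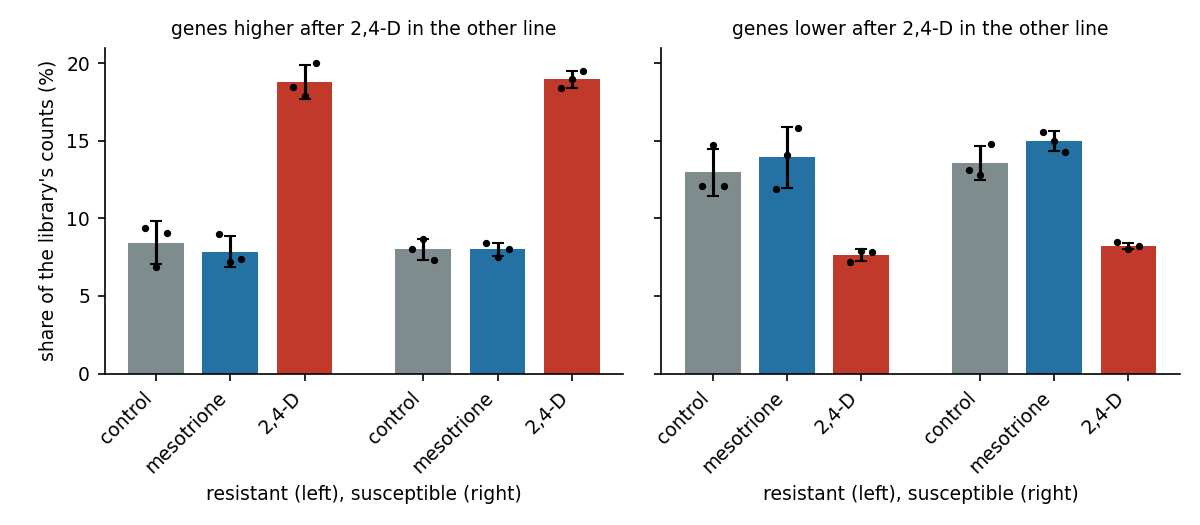
Share of each library's counts held by genes called in the other line, in percent, for genes higher (left) and lower (right) after 2,4-D there. Bars are means of 3 libraries, error bars are the SD and points are libraries, with resistant plants left and susceptible plants right in each panel. After 2,4-D the higher genes hold 17.9 to 20% and the lower genes 7.16 to 8.46% of the counts.

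The difference between 2,4-D and mesotrione was then compared between the lines themselves. By edgeR's test of this interaction 1 of 18836 genes (0.00531%) was called, and 545 had an unadjusted p under 0.05. The test did not use the plant number, by which libraries of the 2 sprays correlated. The single call therefore does not show that the lines responded alike. The gene was AmaPaChr12Ag195780. In resistant plants 5, 7 and 8 it stood at 292, 185 and 328 CPM after 2,4-D and at 27.2, 17.1 and 27.6 CPM after mesotrione. In susceptible plants 5, 6 and 7 it stood at 35.5, 44.9 and 51 CPM after 2,4-D and at 62.4, 119 and 65.9 CPM after mesotrione. The resistant log2 difference was 3.5 ± 0.33 SE (edgeR adjusted p = 0.00028) and the susceptible one -0.89 ± 0.3 SE (adjusted p = 0.071), and the lines differed by 4.39 ± 0.44 SE (adjusted p = 0.015). In resistant plants the control libraries (74.3, 159 and 418 CPM) lay above all mesotrione libraries and around the 2,4-D libraries. In susceptible plants the control libraries (11.7 to 44.9 CPM) lay below all mesotrione libraries. The call was lost without resistant 2,4-D library 5 or resistant mesotrione library 5 or 8. It was also lost without susceptible 2,4-D library 5, 6 or 7 (adjusted p up to 0.11 in all these cases). The value ran from 4.05 to 4.61 over all 12 omissions of a library. With a plant left out the value ran from 4.04 to 4.66 and the adjusted p from 0.034 to 0.36. The call was lost in 5 of these 6 omissions.

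With the plant number as a block, 36 genes differed between the lines, and 1617 had an unadjusted p under 0.05 by edgeR. DESeq2 without a block called 71 (60 with the higher difference in resistant plants, 11 with the lower). Of the 36, 31 had the higher difference in resistant plants, with medians of 2.21 there and -0.55 in susceptible plants. For these 31 genes the resistant control libraries lay 1.48 above resistant mesotrione libraries (median log2), and 0.49 below the resistant 2,4-D libraries. The susceptible control libraries lay -0.64 from the susceptible mesotrione libraries, and 0.36 below the susceptible 2,4-D libraries. In 22 of the 31, the resistant mesotrione group had the lowest mean of all 6 groups of batch 1. The other 5 genes had median log2 differences of 1.11 in resistant and 2.36 in susceptible plants. As these genes were chosen for this difference, their medians between the sprays describe the choice and are not a separate result. The control libraries did not enter the choice, but the sprayed libraries they are set against did.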

How the data were processed

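The authors deposited raw counts, a whole number for each gene model in each library. Libraries were stranded, polyA-selected and read as 150 bp pairs, per the labels' protocols. Trimmomatic, FastQC, STAR and DESeq2 appear in the submitters' processing notes without versions. Genome build, annotation and strand setting are not given in the sources at hand. Of the counts above 0, 99.1% were even, so a read pair mostly adds 2 counts. The table holds 26353 gene models (24873 mRNA, 1480 tRNA, of which 6 were tested), and a line naming no gene held 0 counts. Library totals of the series ran from 16583010 to 72979429 counts.

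The 12 libraries entered 1 fit with a mean per line and treatment (8 residual degrees of freedom) in edgeR 4.0.16 under R 4.3.3, with TMM factors, the default filter on low counts and robust quasi-likelihood dispersions. Each contrast was adjusted over the 18836 genes kept by Benjamini-Hochberg, with a threshold of 0.05. An SE is the log2 difference divided by the square root of F. CPM and log2 CPM (prior count 2) use TMM factors of all 18 libraries of batch 1. Each line was also fitted alone on its 6 libraries (4 residual degrees of freedom), a step added after the data were seen. The script was tested on simulated data. DESeq2 1.42.0 and the settings in the closing section were alternatives.

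Deviations from group means of libraries with the same plant number correlated at 0.6 to 0.67, and those of different numbers at -0.36 to -0.26. Centring each group on its own mean ties the negative values to the positive ones, so they add no separate evidence. Given the former values, the numbers in the titles were taken to pair the libraries in the block and in differences per plant. The main fit did not use the pairing, so its counts and p-values are unpaired. The labels do not say how the replicates were raised beyond these numbers, so p-values measure the spread between these libraries. No 2 libraries of a group agreed within sampling noise. Named genes are, per contrast, the 2 highest and 2 lowest called genes by log2 difference that reached a mean of 5 CPM in the higher group and whose treatments did not overlap within a line. For the difference between the lines no separation was asked. The gene lists by product name could not be applied. The libraries, lists and tests were chosen with earlier results of these data known.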

Additional observations from a re-analysis of the deposited data

Results flagged for a closer look

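AmaPaChr12Ag195780 was singled out because its response differed between the lines by a test of the difference itself. The log2 difference between 2,4-D and mesotrione was 4.39 higher in resistant than in susceptible plants (edgeR adjusted p = 0.015). It was higher after 2,4-D in 3 of 3 resistant plants and lower in 3 of 3 susceptible plants. The gene was picked by this test in the same libraries, so these counts of plants add no support. The difference within susceptible plants was not called (edgeR adjusted p = 0.071). For the difference between the lines the adjusted p ran from 0.011 to 0.11 when single libraries were left out, and from 0.034 to 0.36 when whole plants were. The call was lost in 5 of the 6 omissions of a plant. The adjusted p was 0.36 and 0.68 with all 18 libraries of batch 1 or all 48 of the series in the fit.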

How the results depend on the processing

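Over the mean of the lines the count of 6026 stayed within 1.5 times under every alternative but 2, the plant number as a replicate block (9319) and a 2-fold change asked as well (2018), and it was 4545 with all 48 libraries in the fit. Leaving out single libraries or plants gave 4179 to 6420. The resistant count of 2663 became 4190 with DESeq2, 6328 with the replicate block, 1440 with all 48 libraries (67.3% of them higher), 1544 in a fit of the resistant libraries alone (61.3% higher) and 1313 with a 2-fold change, and 389 to 3539 with libraries or plants left out. The susceptible count of 2851 became 4241 with DESeq2, 6569 with the block, 1609 with all 48 libraries (65.3% higher) and 1447 with a 2-fold change. It was 672 to 3292 with libraries or plants left out. The difference between the lines went from 1 gene to 71 with DESeq2, 36 with the block, and 0 by edgeR with 18 or 48 libraries in the fit (469 and 369 genes at an unadjusted p under 0.05), and 0 to 2 with libraries or plants left out. For 2,4-D against control leaves the block gave 7367, and omissions 3233 to 5190. For mesotrione the block gave 257, DESeq2 370 and omissions 0 to 228.

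The medians read in the other line kept their sign under every alternative run. In susceptible plants the higher genes moved from 0.87 to 0.92 with total counts, 0.797 with DESeq2, 0.67 with the block, 0.97 with 48 libraries, 1.03 with the line fitted alone and 1.42 with a 2-fold change, and the lower genes to -0.76, -0.65 (block) and -1.46. In resistant plants the block gave 0.604 and -0.69, and a 2-fold change 1.44 and -1.26. The cause was not tested. With libraries or plants left out the medians ran from 0.802 to 1.56 and -1.1 to -0.77 in susceptible, and 0.697 to 1.25 and -1.21 to -0.75 in resistant plants. The highest, 1.56, came without resistant plant 7.

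The position of control leaves changed sign in susceptible plants for the higher genes with a 2-fold change (-0.061) and without resistant plant 7 or 8 (-0.0149 and -0.0786), and in resistant plants for the lower genes without mesotrione library 8 or plant 8 (0.0535 and 0.0565). With a 2-fold change the lower genes of susceptible plants moved to -0.447. The cause was not tested. With batch 2 controls the higher genes of resistant plants moved to 0.23. Omissions gave -0.0786 to 0.12 and -0.28 to -0.0502 in susceptible, and -0.0089 to 0.16 and -0.31 to 0.0565 in resistant plants. Of 375 values of named genes under alternatives, 334 stayed called, 41 were no longer called and 0 changed sign. The thinning, the fits of 1 line alone, the counts of genes that differ from control leaves and the batch 2 controls were chosen after seeing the data.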

Other observations

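Genes with consecutive identifier numbers were described as pairs, without a test. The identifiers carry a chromosome label and a number, and 15280 pairs of tested genes had the same label and neighbouring numbers. Among genes in such pairs, 1.95% were called and over 4-fold higher after 2,4-D, but 10.1% of those whose neighbour was. For genes over 4-fold lower the shares were 1.17% and 6.15%. Without a fold limit the shares were 16.4% and 19.7% for higher genes and 16.3% and 19.2% for lower genes, and 495 pairs were higher together, 479 lower together and 757 in opposite directions. At over 4-fold, 30 pairs were higher together, 11 lower together and 6 in opposite directions. Runs of at least 3 such neighbours numbered 5, of which 4 were higher and 1 lower. AmaPaChr10Ag166430, the highest of the named genes over the mean of the lines, is the last of a run of 3. Whether neighbours share reads was not tested.

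Over the 17 chromosome labels from 1 upwards, the share of genes higher after 2,4-D ran from 14.1% to 19.6% and the share lower from 14.3% to 18.8%. Under the label 0, 24 of 120 genes (20%) were higher and 5 (4.17%) lower.

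Of the 1421 genes higher after 2,4-D in resistant plants, 29 (2.04%) were lower in all 3 susceptible plants, where 31.5% of all genes tested were. The lower genes of resistant plants gave 2 such opposite genes, and the higher and lower genes of susceptible plants 4 and 16. For the 29 genes, the resistant control libraries lay 1.18 above the resistant mesotrione libraries (median log2), near the 1.32 of 2,4-D, and in susceptible plants control and 2,4-D libraries lay -0.6 and -0.57 from mesotrione. These genes were picked by their differences between the sprays, and the control values are set against mesotrione libraries that entered that pick.

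No count in any of the 6 mesotrione libraries and at least 1 fragment in all 6 of the 2,4-D libraries was found for 9 genes, and the reverse for 0. Each of the 9 genes also had a count in 1 to 4 of the 6 control libraries of batch 1. The 2,4-D libraries were mostly the deeper ones, only 2 of the 9 passed the filter on low counts, and their mean levels after 2,4-D ran from 0.0969 to 2.5 CPM.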
